A study of Carassius auratus with 10 samples.

Results

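Amino acid and peptide transporters are the membrane proteins that carry amino acids, their relatives taurine and creatine, and short peptides into, out of and within cells. In the cultured radial glial cells (RGCs) of goldfish, transcripts of 51 such genes were found among 17474 genes with a name, on 179 of 170956 unigenes (assembled transcript clusters). Members were chosen by the symbol in the gene name alone. They were every gene so named of the solute carrier families SLC1, SLC3, SLC6, SLC7, SLC15, SLC36, SLC38 and SLC43, except the glial glutamate transporters slc1a2b, slc1a3a and slc1a3b. Unigenes named only in the protein description were left out. The symbols brought in a few genes with other cargo or function. The dopamine, norepinephrine and serotonin transporters (slc6a3, slc6a2 and slc6a4a) belong to SLC6. The gene slc7a6os is named for its place on the strand opposite slc7a6. In mammals and yeast it codes for a protein that helps bring RNA polymerase II into the nucleus.

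The cultures were primary RGCs from the hypothalamus and telencephalon of adult female goldfish (Carassius auratus), grown in medium with serum and used at passage 3. There were 4 untreated control cultures, 3 cultures exposed to 1000 nM of the peptide secretoneurin A (SNa) and 3 cultures exposed to 10 µM of SKF, which activates dopamine D1 receptors, with 24 h of exposure. The fish carried no transgene and no mutation is named. SNa was diluted in serum-free medium, and the sources used here do not give the medium of the controls over the same 24 h. The labels give 2 lanes for 3 of the control libraries and 1 lane for the other. The deposited tables hold 1 normalized value per unigene for each group, made from pooled reads, so the values below have no replicate error, no difference could be tested across cultures, and every interval covers counting error alone.

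Neutral amino acids enter most cells through a few kinds of carrier. The SLC38 proteins (SNATs) use the sodium gradient to concentrate glutamine, alanine and their like, SLC1A4 and SLC1A5 exchange small neutral amino acids, and the light chains of SLC7 reach the plasma membrane bound to a heavy chain of SLC3. The SLC43 and SLC36 carriers move branched-chain and small amino acids across plasma and lysosomal membranes. Astrocytes and other glia are known for releasing glutamine through SNATs and for taking up glycine, taurine and dipeptides. In vertebrates a shortage of amino acids raises several of these genes through the kinase GCN2 and the factor ATF4.

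The pooled reads came to 147886694 in the control pool, 64778968 in the SNa pool and 86711702 in the SKF pool. Levels are given as RPM, reads per 1000000 reads of all unigenes, and were not compared between genes because a longer transcript draws more reads. A listing at 0 allows up to 0.0203 RPM in the control pool, 0.0463 RPM in the SNa pool and 0.0346 RPM in the SKF pool (3 reads). A fold is the authors' normalized value in one pool over that in another, with a 95% Clopper-Pearson interval, and near-identical copies of this duplicated genome may share reads. Of the 179 unigenes, 177 matched a zebrafish protein best, with a median identity of 89.2%. Of the 51 members, 24 had 1000 or more control reads and 14 had fewer than 100. The SNa and SKF folds share the same control pool and are therefore set side by side without any measure of how alike they are.

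Marker genes of cell types also differed between the pools. The summed level of 10 radial glial markers was 7544 RPM in the control pool, 4315 RPM in the SNa pool and 4315 RPM in the SKF pool, with 9 of the 10 lower in each treated pool. The other, nes, was higher, at 1.41 (1.37 to 1.45) with SNa and 1.21 (1.18 to 1.25) with SKF. Of the 1115716 control reads in this sum, vim held 546697. The summed level of 11 markers of fibroblasts and mural cells was 21586, 31502 and 31926 RPM. Of these markers with a mean normalized value of 10 or more, 8 of 10 were higher with SNa and 9 of 11 with SKF. The others were lower: tagln stood at 0.929 (0.923 to 0.935) with SNa and 0.873 (0.868 to 0.878) with SKF. For rgs5b the folds were 0.315 (0.296 to 0.335) and 0.419 (0.399 to 0.439). For 6 lens genes the sum was 329, 6.01 and 4.68 RPM. The summed level of 4 endothelial genes was 106, 32.9 and 32.0 RPM. This endothelial sum was mostly cldn5a, with 15348 of its 15682 control reads, and the other endothelial genes went both ways. The fold of cldn5b was 0.55 with SNa and 0.412 with SKF. That of cdh5 was 1.68 with SNa and 1.16 with SKF, where the interval included 1. For tie1 there were 4, 8 and 2 reads. Microglial genes stood at 628, 686 and 625 RPM (4 genes), neuronal genes at 31.3, 25.9 and 26.0 RPM (8 genes) and oligodendrocyte genes at 17.4, 15.7 and 17.6 RPM (4 genes). The microglial sum was mostly apoeb, with 86778 of its 92822 control reads. The other microglial genes were ptprc at 1.55 (1.17 to 2.05) with SNa and 1.99 (1.56 to 2.54) with SKF, cd74a at 1.33 and 1.33, and cd74b at 1.01 and 0.997. The radial glial marker gfap was present in every pool, at 1622, 1134 and 1092 RPM, whereas fabp7a, another, stood at 303, 10.0 and 10.6 RPM. The collagen gene col1a1a was also abundant, at 7924 RPM in the control pool. In the SNa pool the neuronal gene elavl3 (14, 0 and 10 reads) and the oligodendrocyte gene mbpa (34, 0 and 4 reads) were listed at 0. The oligodendrocyte sum was mostly mbpb, with 2391 of its 2579 control reads. With a mean of 10 or more, 2 of 6 neuronal genes were higher with SNa and 3 of 8 with SKF. For oligodendrocyte genes these counts were 1 of 3 and 1 of 4. Among the higher ones were syt1a at 1.41 (1.02 to 1.93) and 1.54 (1.16 to 2.06) and sox10 at 1.06 (0.618 to 1.78) and 2.04 (1.38 to 3.05). The part of these values in the transporter results below was not tested. In such mixed RNA, fewer cells of a type and less RNA per cell cannot be told apart.

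Summed over the 51 members, transporter transcripts stood at 1610 RPM in the control pool, 1854 RPM in the SNa pool and 1913 RPM in the SKF pool. The sum was 1.14 times the control value with SNa (1.13 to 1.15) and 1.18 times with SKF (1.17 to 1.19), and the SNa pool was at 0.966 of the SKF pool (0.956 to 0.977). The summed members of SLC38, SLC1 and SLC6 were higher in both treated pools. Those of SLC3, and the only SLC15 member, slc15a2, were lower. SLC38 reads went from 592 RPM to 752 and 775 RPM, SLC1 reads from 186 to 246 and 247 RPM, and SLC6 reads from 177 to 213 and 231 RPM. SLC3 reads stood at 262, 226 and 232 RPM, and those of slc15a2 at 5.87, 2.22 and 1.59 RPM. The SLC15 value is thus that of 1 gene. The SLC15 genes slc15a4 and slc15a1a, named only in the protein description, are not in it. Their folds were 1.29 with SNa and 1.83 with SKF for slc15a4, and 0.975 and 1.04 for slc15a1a, whose intervals included 1. SLC7 stood at 215, 233 and 238 RPM, SLC43 at 147, 153 and 156 RPM and SLC36 at 26.7, 28.99 and 32.4 RPM.

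**Figure D1:**
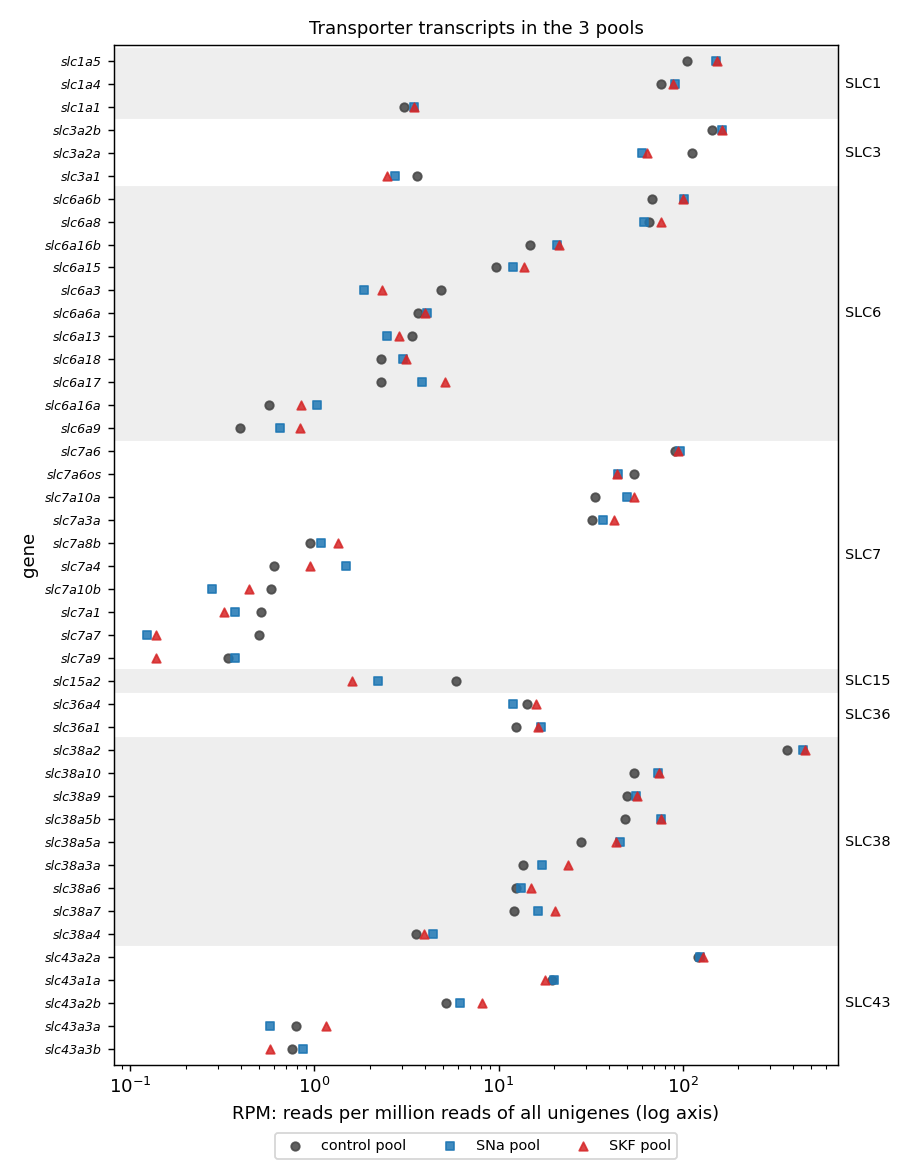
Level of each transporter gene with 50 or more control reads (44 genes) in the control (circles), SNa (squares) and SKF (triangles) pools, in RPM on a log axis, ordered by family and by control reads. The marks of a gene mostly lie close together; those of slc3a2a, slc6a3, slc7a7 and slc15a2, among others, have the control pool to the right of both treated pools.

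A mean normalized value of 10 or more was reached by 47 members in each comparison with the controls. With SNa, 6 of the 47 were at least 1.5-fold higher, where 8.97% of all named genes were, and 6 were at least 1.5-fold lower, where 11.8% were. At 2-fold, 1 member was higher (background 1.95%) and 5 were lower (background 5.72%). With SKF, 10 of the 47 were at least 1.5-fold higher (background 12.9%) and 7 were lower (background 11.6%), and at 2-fold the counts were 3 higher (background 3.17%) and 4 lower (background 5.16%). As shares of the 47 members, SNa gave 12.8% higher and 12.8% lower at 1.5-fold, and 2.13% higher and 10.6% lower at 2-fold. SKF gave 21.3% higher and 14.9% lower at 1.5-fold, and 6.38% higher and 8.51% lower at 2-fold. Some of these shares lie near the background and others above it, but they rest on few members. Many of the genes behind them had few reads.

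Counting intervals that exclude 1 were more frequent on the higher side. With SNa this held for 21 of 47 members higher (background 28.1%) and 10 lower (background 27.9%), and with SKF for 25 higher (background 33.4%) and 7 lower (background 28.1%). The median fold of the 47 members was 1.12 with SNa, beside 1.01 for all named genes, and 1.15 with SKF, beside 1.03. Among members with 1000 or more control reads, 20 of 24 were above 1 with SNa and the median was 1.19, whereas 49.6% of all such genes were above 1 and their median was 0.998. In the SKF pool 21 of these 24 were above 1 with a median of 1.28, whereas 52.7% of all such genes were above 1 and their median was 1.02. The differences of the abundant members were small and mostly on the higher side.

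**Figure D2:**
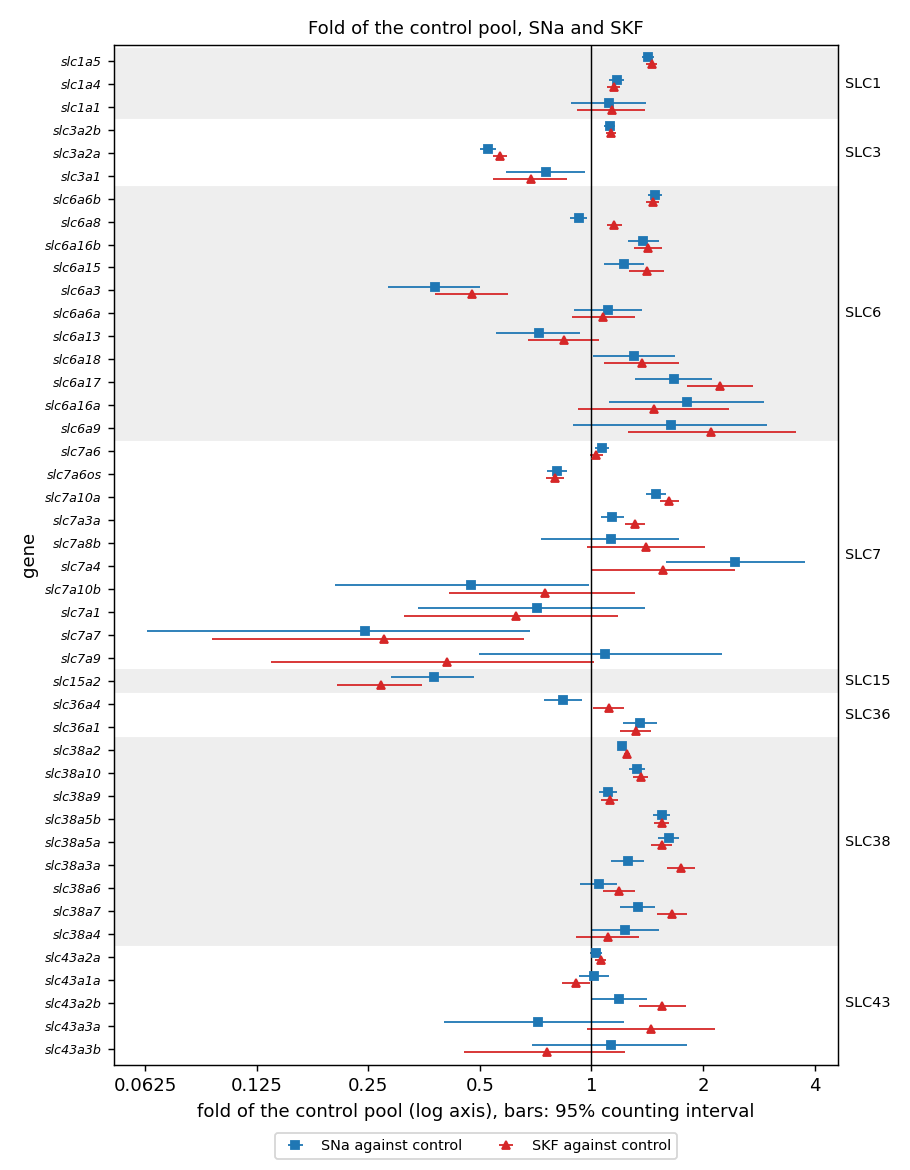
Fold of the control pool for the same 44 genes on a log axis, SNa (squares) and SKF (triangles), with 95% counting intervals as bars. The SLC38 genes lie to the right of 1 in both comparisons, slc3a2a, slc6a3 and slc15a2 lie to the left, and the genes with few reads have intervals that span several fold.

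SLC38, the sodium-coupled neutral amino acid transporters, held 9 members with 87493 of the 238099 control reads. In the SNa pool 9 of 9 were above the control value with a median fold of 1.25, and in the SKF pool 9 of 9 with a median fold of 1.36. Of all named genes, 50.7% and 53.8% were above it. The member with most reads was slc38a2 (SNAT2), the carrier that mammalian cells raise when amino acids are short. It stood at 368 RPM in the control pool, 449 RPM in the SNa pool and 461 RPM in the SKF pool. The fold was 1.21 with SNa (1.19 to 1.24) and 1.25 with SKF (1.22 to 1.27), and its 3 unigenes, each covering the protein from residue 1 to 504, lay between 1.13 and 1.29.

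The genes slc38a5b and slc38a5a, copies of the gene for SNAT5, a carrier of glutamine, glycine and serine that works in both directions in mammalian glia, showed the largest SNa folds of the family. The level of slc38a5b was 49.0 RPM in the control pool, 76.3 RPM in the SNa pool and 76.2 RPM in the SKF pool. Its folds were 1.55 (1.47 to 1.63) and 1.55 (1.48 to 1.62). For slc38a5a the levels were 28.0, 45.6 and 43.5 RPM and the folds 1.61 (1.51 to 1.73) and 1.54 (1.45 to 1.65). The 2 unigenes of slc38a5b and the 4 unigenes of slc38a5a with 50 or more control reads were higher in both treated pools, with folds from 1.40 to 2.43.

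The SNAT3 gene slc38a3a, a glutamine carrier of mammalian astrocytes, differed more with SKF than with SNa. Its level was 13.7 RPM in the control pool, 17.2 RPM in the SNa pool and 23.9 RPM in the SKF pool. The folds were 1.25 (1.13 to 1.39) and 1.74 (1.60 to 1.90), and the SNa pool stood at 0.719 of the SKF pool (0.647 to 0.797). For slc38a7, whose mammalian product exports glutamine from lysosomes, the levels were 12.2, 16.4 and 20.2 RPM, with folds of 1.33 (1.20 to 1.49) and 1.65 (1.501 to 1.81), and the SNa pool stood at 0.808 of the SKF pool (0.724 to 0.901). The 3 larger unigenes of each gene lay above 1 in both comparisons with the controls.

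The other members of the family also had values above the controls, some with intervals that included 1. The level of slc38a10, a less studied SNAT, was 54.8, 73.4 and 74.7 RPM in the control, SNa and SKF pools, with folds of 1.33 (1.26 to 1.40) and 1.36 (1.29 to 1.42). For slc38a9, the lysosomal carrier that reports arginine to the mTORC1 kinase complex, it was 50.1, 55.9 and 56.4 RPM, with folds of 1.11 (1.05 to 1.17) and 1.12 (1.06 to 1.18), but its unigene with 1766 control reads stood at 0.9501 and 0.918. Set against unigenes of the same stretch of numbers, the SNa fold of slc38a9 was 1.03. The gene slc38a6 stood at 1.05 (0.930 to 1.17) with SNa and 1.19 (1.07 to 1.31) with SKF, and slc38a4 had intervals that included 1 in both comparisons.

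In SLC1, slc1a5 (ASCT2), an exchanger of glutamine and other neutral amino acids, was at 106 RPM in the control pool, 152 RPM in the SNa pool and 155 RPM in the SKF pool. The folds were 1.42 (1.37 to 1.47) and 1.45 (1.41 to 1.502), all on 1 unigene. The gene slc1a4 (ASCT1), which exchanges serine, alanine and cysteine, was at 76.7, 90.5 and 88.5 RPM with folds of 1.17 (1.12 to 1.22) and 1.15 (1.101 to 1.195). Its 3 unigenes did not move together. The unigene with 2479 control reads, covering residues 1 to 356, stood at 1.54 and 1.63, that with 7016 reads at 1.09 and 1.06, and that with 1849 reads at 0.963 and 0.817. The neuronal glutamate and cysteine carrier slc1a1 (EAAT3) was at 3.07, 3.46 and 3.49 RPM, with intervals that included 1, and slc1a9 had 22, 4 and 8 reads.

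The heavy chains of SLC3 differed between copies. The duplicates slc3a2a and slc3a2b both encode the CD98 heavy chain, which carries light chains such as LAT1 to the plasma membrane and binds integrins. The level of slc3a2a was 113 RPM in the control pool, 59.9 RPM in the SNa pool and 64.5 RPM in the SKF pool, so both treated pools were low. Its folds were 0.525 (0.4998 to 0.552) and 0.567 (0.543 to 0.592), and the lower value rested on 1 unigene with 16654 of its 16736 control reads, whereas the second unigene, with 82 reads, stood at 1.105 and 1.08 with intervals that included 1. For slc3a2b the levels were 145, 164 and 165 RPM with folds of 1.12 (1.08 to 1.16) and 1.13 (1.096 to 1.16). Its 5 unigenes ranged from 0.833 to 1.22 with SNa and from 0.758 to 1.25 with SKF, and their identity to the zebrafish protein was 69.1% to 80.1%. Set against unigenes of the same stretch of numbers, the SNa fold of slc3a2b was 1.02. The heavy chain slc3a1 (rBAT), which serves cystine and dibasic amino acid uptake in the kidney, was at 3.61, 2.75 and 2.49 RPM with folds of 0.755 (0.587 to 0.963) and 0.686 (0.544 to 0.861).

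Among the SLC7 light chains and cationic amino acid carriers, the gene with most reads was slc7a6 (y+LAT2), which in mammals exports arginine in exchange for glutamine and sodium. It stood at 90.6 RPM in the control pool, 97.4 RPM in the SNa pool and 93.9 RPM in the SKF pool, with folds of 1.07 (1.02 to 1.11) and 1.03 (0.992 to 1.07). Its 4 unigenes did not move together. Those with 6255 and 2396 control reads stood at 1.06 and 1.24 with SNa and at 1.08 and 1.27 with SKF. Those with 2732 and 2009 reads, of 71.6% and 73.4% identity, stood at 0.982 and 0.981 with SNa and at 0.828 and 0.892 with SKF. With unigenes of at least 80% identity the SNa fold was 1.11. The gene slc7a6os was at 54.7, 44.5 and 43.8 RPM, with folds of 0.806 (0.759 to 0.856) and 0.796 (0.753 to 0.841). The sources used here do not say whether the counting used strand or whether slc7a6 and slc7a6os overlap in goldfish. If they overlap, their reads may be mixed.

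The gene slc7a10a (Asc-1), a light chain that exchanges glycine, alanine and serine including D-serine, was higher in both treated pools. Its level was 33.2 RPM in the control pool, 50.1 RPM in the SNa pool and 54.2 RPM in the SKF pool, and its folds were 1.495 (1.40 to 1.59) and 1.62 (1.53 to 1.72). The 2 unigenes, each from residue 1 to 511, were close to each other at 1.48 and 1.52 with SNa and at 1.62 and 1.62 with SKF. The second copy slc7a10b had few reads (86, 18 and 38), with folds of 0.474 (0.203 to 0.986) and 0.750 (0.413 to 1.31). The cationic carrier slc7a3a (CAT3) was at 32.1, 36.9 and 42.3 RPM with folds of 1.14 (1.06 to 1.22) and 1.31 (1.23 to 1.40).

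The remaining SLC7 genes had at most 140 control reads each. For slc7a4, a CAT relative of unclear cargo, reads numbered 89 in the control pool, 96 in the SNa pool and 82 in the SKF pool, with folds of 2.44 (1.59 to 3.76) and 1.56 (0.997 to 2.44) over 5 unigenes, 1 of which matched its protein at 20% identity. For slc7a7 (y+LAT1), known from macrophages and epithelia, they numbered 74, 8 and 12, with folds of 0.245 (0.0634 to 0.681) and 0.275 (0.0949 to 0.658). The genes slc7a8b, slc7a1, slc7a9 and slc7a14b had intervals that included 1 in both comparisons with the controls. For slc7a2 (26, 8 and 36 reads) the interval excluded 1 with SKF alone, at 2.35 (1.09 to 5.215).

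**Figure D3:**
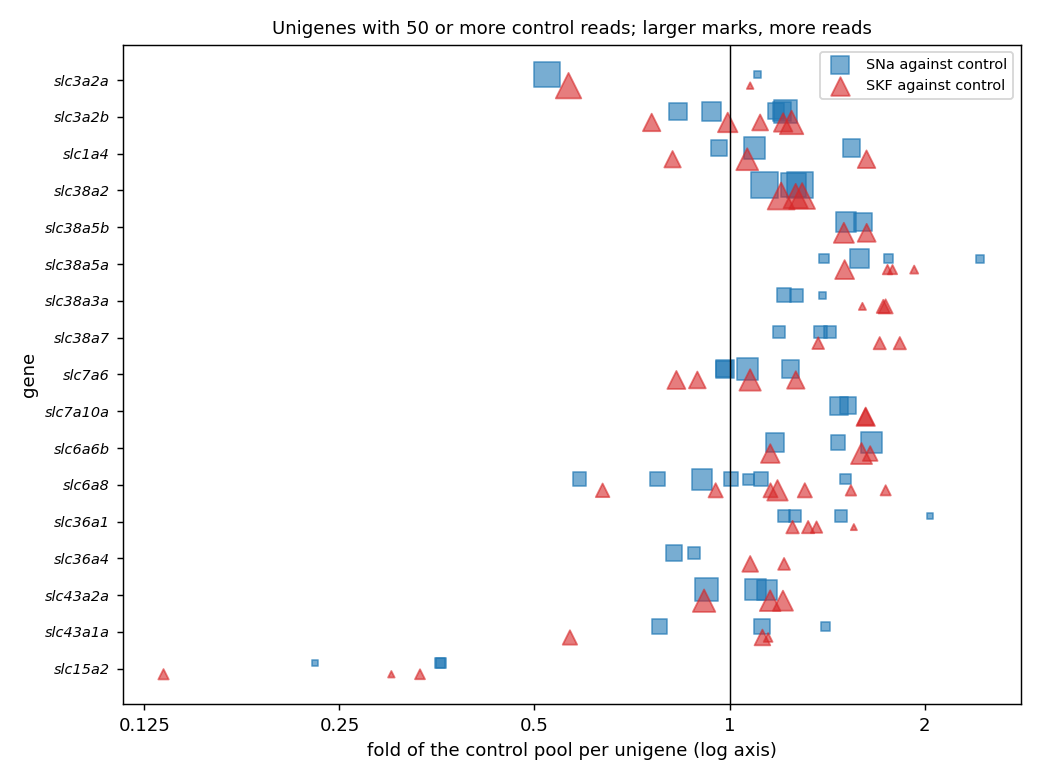
Fold of the control pool for each unigene with 50 or more control reads in 17 genes, on a log axis, SNa (squares) and SKF (triangles), with larger marks for more reads. The unigenes of slc38a2, slc38a5a, slc38a5b and slc7a10a lie on one side of 1, whereas those of slc6a8, slc1a4, slc3a2b and slc43a1a lie on both sides.

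The SLC43 carriers LAT3 and LAT4 let large neutral amino acids such as leucine leave or enter without sodium. Their genes differed little, apart from slc43a2b with SKF. The level of slc43a2a was 121 RPM in the control pool, 125 RPM in the SNa pool and 128 RPM in the SKF pool, with folds of 1.03 (0.991 to 1.07) and 1.06 (1.02 to 1.096), but its unigene with 8074 control reads stood at 0.922 and 0.914. For slc43a1a the levels were 19.6, 20.02 and 17.9 RPM, and the folds of 1.01 (0.923 to 1.11) and 0.910 (0.833 to 0.994) averaged unigenes on both sides of 1. The gene slc43a2b was at 5.19, 6.21 and 8.11 RPM with folds of 1.19 (0.994 to 1.41) and 1.55 (1.34 to 1.80). The copies slc43a3a and slc43a3b, whose mammalian counterpart carries purine bases, had 117 and 112 control reads and intervals against the controls that included 1.

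In SLC36, slc36a1 (PAT1) is a proton-coupled carrier of small amino acids that works on lysosomes. Its level was 12.5, 17.0 and 16.5 RPM in the control, SNa and SKF pools. Its folds were 1.35 (1.21 to 1.504) and 1.31 (1.19 to 1.45), and its 4 unigenes were all above 1. The gene slc36a4 (PAT4), which carries proline and tryptophan, was at 14.2 RPM in the control pool, 12.0 RPM in the SNa pool and 15.9 RPM in the SKF pool. Here SNa lay below the controls at 0.837 (0.743 to 0.941) and SKF above them at 1.11 (1.01 to 1.23), and the SNa pool stood at 0.752 of the SKF pool (0.663 to 0.853). Both unigenes showed this order. Set against unigenes of the same stretch of numbers, the SKF value was 0.985.

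SLC6 holds carriers that use sodium and chloride. The taurine transporter slc6a6b was at 68.5 RPM in the control pool, 102 RPM in the SNa pool and 101 RPM in the SKF pool. Its folds were 1.48 (1.42 to 1.55) and 1.46 (1.41 to 1.52), and its 3 unigenes ranged from 1.16 to 1.65. The second taurine copy slc6a6a, at 3.665, 4.11 and 3.97 RPM, had intervals that included 1. The creatine transporter slc6a8 was at 65.9, 61.4 and 76.4 RPM, below the controls with SNa at 0.924 (0.876 to 0.973) and above them with SKF at 1.15 (1.103 to 1.21). Its 7 unigenes ranged from 0.587 to 1.51 with SNa, 4 above 1 and 3 below, and from 0.637 to 1.74 with SKF, 5 above and 2 below. For 7 of 7 the SKF fold was the higher one. With slc36a4, slc6a8 was 1 of 2 members whose intervals excluded 1 on opposite sides. The share of all named genes with such intervals is not given here, so this count is not read as a result about the members.

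Neutral amino acid carriers of SLC6 and their relatives mostly stood above the controls. The level of slc6a15, which takes up proline and branched-chain amino acids in mammalian neurons, was 9.75, 12.0 and 13.8 RPM, with folds of 1.22 (1.08 to 1.39) and 1.41 (1.26 to 1.57). For slc6a17, whose product loads neutral amino acids into synaptic vesicles in mammals, it was 2.29, 3.84 and 5.10 RPM, with folds of 1.67 (1.31 to 2.12) and 2.22 (1.81 to 2.73). The gene slc6a16b was at 14.9, 20.7 and 21.2 RPM, with folds of 1.38 (1.25 to 1.52) and 1.42 (1.30 to 1.55). Its copy slc6a16a had 84, 67 and 73 reads, with folds of 1.81 (1.11 to 2.91) and 1.47 (0.920 to 2.35). For slc6a18, spread over 10 unigenes, the folds were 1.31 (1.01 to 1.68) and 1.37 (1.08 to 1.72).

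Carriers of neurotransmitters in SLC6 had few reads. The dopamine transporter slc6a3, which clears dopamine at nerve endings, had 717 reads in the control pool, 120 in the SNa pool and 201 in the SKF pool, or 4.85, 1.85 and 2.32 RPM. Its folds were 0.379 (0.283 to 0.499) and 0.476 (0.377 to 0.595), on 1 unigene. The GABA and taurine carrier slc6a13 (GAT2) was at 3.40, 2.47 and 2.88 RPM with folds of 0.720 (0.553 to 0.930) and 0.843 (0.675 to 1.05). The lower values rested on its unigene with 377 control reads, at 0.625 and 0.693. That with 120 reads stood at 1.06 (0.650 to 1.68) and 1.33 (0.888 to 1.98). Set against unigenes of the same stretch of numbers, the SNa fold of slc6a13 was 0.879. The glycine transporter slc6a9 (GlyT1) had 58, 42 and 72 reads over 6 unigenes, with folds of 1.64 (0.889 to 2.98) and 2.11 (1.26 to 3.56). Its unigene of highest mean alone, with 14 control reads, gave 3.56 and 5.09. Another with 14 control reads gave 2.26 (0.678 to 7.57) and 0.485 (0.0491 to 2.55). The transporters slc6a2 (norepinephrine) and slc6a4a (serotonin) had 6 reads each and slc6a19a.1 had 4, in the control pool alone, and slc6a19b had 4 in the SKF pool alone. These 4 genes were below the minimum and no fold is given.

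The peptide transporter slc15a2 (PEPT2), which takes up dipeptides and tripeptides in mammalian astrocytes and kidney, showed the lowest folds among members with 100 or more control reads. It had 868 reads in the control pool, 144 in the SNa pool and 138 in the SKF pool, or 5.87, 2.22 and 1.59 RPM. The folds were 0.376 (0.289 to 0.483) and 0.270 (0.206 to 0.348). The 3 unigenes with 50 or more control reads were low in both treated pools, from 0.229 to 0.358 with SNa and from 0.134 to 0.333 with SKF.

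The SNa and SKF pools were also compared with each other, without control reads in the ratio. Its scale still came from the 2 comparisons with the shared control pool. Scaling by the median of ratios over named genes moved the median log2 fold of all named genes from -0.0295 to 0.00592. Of 46 members with a mean of 10 or more, 3 were at least 1.5-fold higher with SNa (background 3.66%) and 3 at least 1.5-fold lower (background 5.34%). At 2-fold the counts were 1 higher (background 1.7%) and 2 lower (background 2.39%). Intervals excluded 1 for 2 members higher with SNa (background 7.11%) and 14 lower (background 15%), and the median fold was 0.976, beside 0.980 for all named genes. The 14 lower members included slc38a3a, slc38a7, slc36a4 and slc6a8 (0.801, 0.757 to 0.847), and also slc6a17 at 0.752 (0.599 to 0.941), slc43a2b at 0.763 (0.639 to 0.910), slc6a15 at 0.869 (0.763 to 0.989) and slc7a3a at 0.868 (0.807 to 0.935). For slc38a5a, slc38a5b, slc1a5 and slc6a6b the intervals of SNa against SKF were 0.976 to 1.12, 0.948 to 1.05, 0.942 to 1.01 and 0.967 to 1.06. The higher ones were slc7a4 at 1.56 (1.01 to 2.43) and slc43a1a at 1.11 (1.00 to 1.24).

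**Figure D4:**
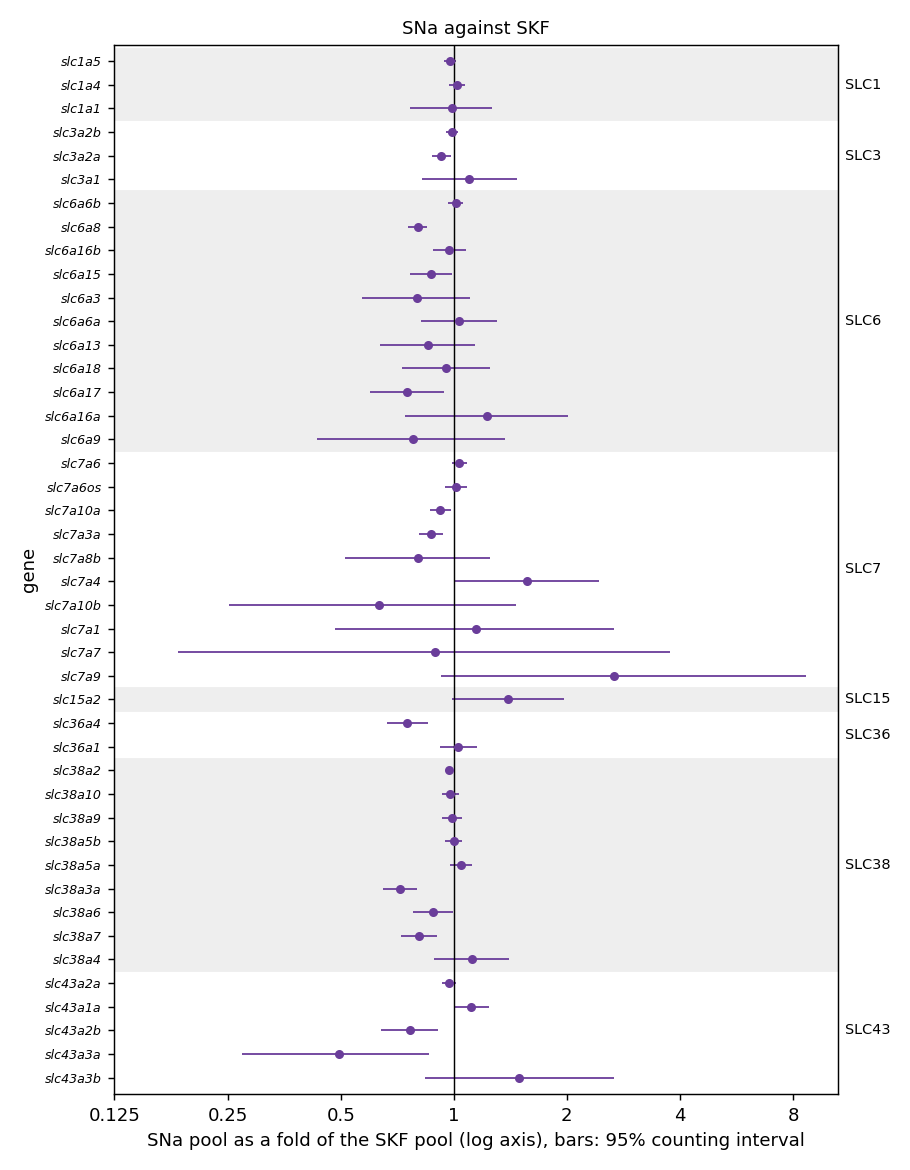
SNa pool as a fold of the SKF pool for the 44 genes with 50 or more control reads, on a log axis with 95% counting intervals. Most genes with many reads lie near 1; slc38a3a (0.719), slc36a4 (0.752), slc38a7 (0.808) and slc6a8 (0.801) lie to the left with narrow intervals.

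Genes of the pathways around the transporters differed mostly in the same small range. Of 18 genes of the amino acid response, 15 were above 1 with SNa (median 1.17) and 15 with SKF (median 1.21). The factors atf5a (1.70, 1.63 to 1.77, with SNa and 1.79, 1.73 to 1.86, with SKF) and atf5b (1.59, 1.52 to 1.65, and 1.73, 1.66 to 1.80) were highest, with the stress genes herpud1 at 1.45 (1.35 to 1.54) with SNa and ddit3 at 1.52 (1.48 to 1.56) with SKF. The mTORC1 inhibitor ddit4 went the other way, from 211 RPM in the control pool to 81.4 RPM with SNa and 98.4 RPM with SKF, at folds of 0.382 (0.367 to 0.399) and 0.464 (0.448 to 0.480). At least 1.5-fold, 2 of the 18 were higher (background 8.97%) and 1 lower (background 11.8%) with SNa, and 3 were higher (background 12.9%) and 1 lower (background 11.6%) with SKF, so these counts lie near the background. The medians of all named genes, for this and the following lists, were 1.01 with SNa and 1.03 with SKF. Of all named genes, 50.7% were above 1 with SNa and 53.8% with SKF, the background for each count above or below 1 in these lists.

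Of 20 aminoacyl-tRNA synthetases, which load amino acids onto their tRNAs, 17 were above 1 with SNa (median 1.12) and 18 with SKF (median 1.08), and 0 passed 1.5-fold in either direction. The largest was eprs, for glutamate and proline, at 1.48 (1.44 to 1.52) and 1.49 (1.46 to 1.53), followed by aars, for alanine, at 1.28 (1.23 to 1.33) and 1.30 (1.25 to 1.34). Among 22 genes of serine and one-carbon synthesis, the medians were 1.11 and 1.08, with gcshb of glycine cleavage at 0.491 (0.437 to 0.549) and 0.511 (0.462 to 0.564) and psph, the last enzyme of serine synthesis, at 0.636 (0.584 to 0.692) and 0.612 (0.566 to 0.661). Of 12 genes of glutathione synthesis, 10 were above 1 with SNa and 8 with SKF, among them gclc, its rate-limiting subunit, at 1.49 (1.44 to 1.53) and 1.36 (1.32 to 1.40), and gsr, the reductase, at 1.55 (1.46 to 1.64) and 1.47 (1.39 to 1.55). In contrast, gclm stood at 1.02 (0.934 to 1.11) and 0.948 (0.875 to 1.03), and cbsa at 0.810 (0.628 to 1.04) and 0.658 (0.514 to 0.836).

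For 38 genes of amino acid sensing by mTORC1 the medians were 1.05 and 1.12, with 24 above 1 in each comparison. The inhibitor tsc1a stood at 1.58 (1.39 to 1.79) and 1.73 (1.55 to 1.94), and eif4ebp1, a repressor of translation that mTORC1 inactivates, at 0.691 (0.650 to 0.735) and 0.662 (0.626 to 0.700). Of 19 genes of branched-chain amino acid breakdown, 15 were below 1 with SNa (median 0.865) and 13 with SKF (median 0.888). The lower ones were led by mcee at 0.727 (0.603 to 0.872) and 0.573 (0.477 to 0.685). The 4 above 1 with SNa and 6 with SKF included bcat1, at 1.27 (1.06 to 1.51) and 1.44 (1.23 to 1.68). Of 32 genes of glutamate, GABA, glycine and taurine metabolism, 18 were below 1 with SNa (median 0.907) and 16 with SKF (median 0.967). The lowest of these was ckbb, a brain creatine kinase and so an enzyme of creatine rather than of a transmitter, at 16.3 RPM in the control pool, 1.85 RPM with SNa and 1.91 RPM with SKF. Its duplicate ckba, with 85082 control reads against 2407 of ckbb, stood above the controls, at 575 RPM in the control pool, 869 RPM with SNa and 816 RPM with SKF, with folds of 1.499 (1.48 to 1.52) and 1.41 (1.39 to 1.43); it was chosen after its values were seen. The gene cdo1, which codes for the enzyme that starts taurine synthesis from cysteine, stood at 0.623 (0.571 to 0.678) with SNa and 0.738 (0.686 to 0.793) with SKF. Another gene of this list, csad, chosen after its values were seen, stood at 1.07 (0.957 to 1.19) and 1.05 (0.949 to 1.16). For gpt2 the folds were 0.684 (0.493 to 0.935) and 0.367 (0.252 to 0.524). In contrast, ckmt1 was higher, at 1.56 (1.22 to 1.99) and 1.74 (1.40 to 2.16).

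Folds also moved with the numbers that the assembly gave to unigenes. The numbers were split into successive stretches with limits chosen after seeing the data, and the 3 lower stretches are given from the lowest numbers up. Among all unigenes with 20 to under 200 control reads, the median SNa fold was 0.725, 0.871 and 1.21, and the median SKF fold was 0.721, 1.13 and 0.887. Member unigenes of that depth had medians of 1.09, 1.07 and 1.43 with SNa and of 1.02, 1.33 and 1.09 with SKF. At 200 or more control reads the medians of all unigenes were closer, from 0.930 to 0.986 with SNa and from 0.937 to 0.994 with SKF over these stretches, and those of member unigenes were 1.18, 1.13 and 1.12 with SNa and 1.27, 1.29 and 1.18 with SKF. In the highest stretch, which holds a unigene each of slc6a13, slc6a2 and slc6a4a, the medians of all unigenes were 0.224 with SNa and 0.233 with SKF at 20 to under 200 control reads and 0.644 and 0.641 at 200 or more. The part of these stretches in the folds of members with few reads was not tested.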

How the data were processed

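RNA of 10 RGC cultures was sequenced as paired-end poly(A) libraries. The authors trimmed the reads, assembled pooled replicates with Trinity, clustered contigs with CD-HIT and matched unigenes to chordate proteins with BLAST. The sources used here do not name the read counter. The signal deposited by the authors is 1 normalized count per group and unigene, made with DESeq size factors (version not given). The deposited percent identity is that of the best BLAST hit. Deposited columns of fold change, log2 fold change, p-value and FDR hold the authors' own comparisons and were not used.

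Pooled reads were obtained as each value over the worth of 1 read (100% whole within 0.01) and were equal for the controls of both tables in 167448 of 167448 unigenes. Reads were summed per symbol, by the first word of the gene name. A fold is the ratio of reads times 2.26 (SNa) or 1.70 (SKF), the ratio of the worths of 1 read, and for SNa against SKF times the quotient of these. Intervals are exact binomial at 95% on reads divided by 2, because 74.8% to 79.7% of values were even, as when mates are counted apart; they cover counting error only. Depth was 64778968 to 147886694 reads per pool. Members needed a mean normalized value of at least 10 for counts and medians.

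No test was run, since each group has 1 pooled value. The study's methods state 3 control cultures, whereas the labels name 4. The members and lists were chosen with earlier results of these data known. Members named by rule were the 3 with most control reads per family, up to 10 higher and 10 lower with a mean of at least 50 and an interval excluding 1 per comparison, and those on opposite sides of 1. Other members were named to account for them all. Up to 4 genes per related list with the largest fold and a mean of at least 50 were eligible. Symbols were compared with RefSeq names (ASM336829v1) and 28 of 51 matched. No sequence is printed. Alternatives covered the unigene used, identity, scaling, stretch of numbers (10000), log2(value + 1) and the minimum. The interval code was tested on simulated data. Python 3.11.15, pandas 2.3.3, numpy 2.4.6, scipy 1.17.1 and matplotlib 3.10.9 were used.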

Additional observations from a re-analysis of the deposited data

Results flagged for a closer look

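A few unigenes carried a transporter name in the protein description and no symbol in the gene name, and so stood outside the members (9 unigenes of 4 genes). Among them slc15a4, a peptide and histidine carrier of lysosomes, was above the control pool at 1.29 (1.08 to 1.53) with SNa and at 1.83 (1.58 to 2.11) with SKF, with 743, 422 and 801 reads in the control, SNa and SKF pools. A further unigene described as slc1a5, with 208, 148 and 209 reads, stood at 1.61 (1.18 to 2.19) with SNa and 1.70 (1.29 to 2.26) with SKF. No explanation was tested.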

How the results depend on the processing

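Values rest on 1 pool per group, so leaving out a culture was not run. No paired analysis was possible because the deposited columns carry no replicate numbers. Of 645 values of the 31 members named by rule under other settings, 584 moved by less than the counting interval, 54 moved by more and 7 changed direction. The cause was not tested. With the unigene of highest mean alone, slc43a2a with SKF became 0.914, slc43a1a with SKF 1.12 and slc43a1a with SNa against SKF 0.998. With unigenes of at least 80% identity slc43a1a with SKF became 1.099. Relative to the stretch of unigene numbers, slc36a4 with SKF became 0.985, slc43a2a with SKF 0.938 and slc38a2 with SNa against SKF 1.04. With the unigene of highest mean alone, slc6a9 (3.56 with SNa, 5.09 with SKF) and slc7a4 (3.26, SNa against SKF) moved by over 1.5 times.

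Counts past a fold depended on genes with few reads. With a minimum mean of 100, 35 members remained with SNa, against 47 in the main setting. Members 1.5-fold lower then fell to 3 with SNa and 3 with SKF, those 2-fold lower to 2 and 2, and those 2-fold higher with SKF to 1. For SNa against SKF the counts were 1 (1.5-fold higher), 0 (1.5-fold lower), 0 (2-fold higher) and 0 (2-fold lower). The share of all named genes past a fold under these other settings is not given here, so the changed counts are not read as results about the members. With the unigene of highest mean alone, 10 of 46 members were 1.5-fold lower and 3 were 2-fold higher with SNa. In that setting 7 were 2-fold lower with SKF and 2 were 2-fold higher with SNa against SKF. Relative to the stretch, 2 of 46 were 2-fold higher with SNa, and with the median of ratios 1 was 2-fold lower with SNa against SKF. The medians of the members moved by less than the limit set for them under each alternative run.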
